A study of Mus musculus with 21 samples.

Results

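The Kruppel-like factors described here are 10 transcription factor genes of 1 family: Klf2, Klf3, Klf4, Klf5, Klf6, Klf7, Klf9, Klf10, Klf11 and Klf13. They were taken by symbol from the 24984 genes of a deposited table of nascent RNA counts, and all 10 were among the 16959 genes that passed the filter on low counts. BrU-seq measures nascent RNA: cells take up bromouridine, new transcripts carry it, and the transcripts that carry it are captured and sequenced. The cells were cortical cultures of CD1 mice on day 17 in vitro. Every culture was preincubated for 30 min with 25 µM MM401 or with its solvent DMSO, then given 40 µM bicuculline or water, with 2 mM bromouridine for the last 30 min. MM401 keeps MLL1, which methylates histone H3, from binding its partner WDR5. Bicuculline blocks GABA-A receptors, which carry most fast inhibition in the cortex, and thereby raises the firing of the network. The 7 groups were DMSO with water for 4 h, DMSO with bicuculline for 1 h, DMSO with bicuculline for 4 h, and MM401 with water or with bicuculline for 1 h or for 4 h. DMSO with water for 1 h was not analysed here, so bicuculline for 1 h in DMSO is set against water for 4 h, and time and treatment differ together in that comparison. In MM401 each time had its own water group.

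Each group had 3 libraries, described in the labels as biological replicates of mixed sex. The third MM401 library in water for 4 h was left out: its total was 316741 counts, 0.503% of the median of the others, with 83 counts over the 10 genes together. The other 20 libraries held 49886348 to 87939384 counts and 18840 to 19277 detected genes. Summed over 8 markers each, neuronal genes lay at 5390 to 7110 CPM (read counts scaled to a common library size) and astrocyte genes at 1150 to 1900 CPM. Sums of markers, here and below, use plain library size. Levels of single genes and calls use TMM factors unless another scaling is named. Microglial markers lay at 29.5 to 51.7 CPM, mural and fibroblast markers at 8.87 to 15.5 CPM, and endothelial markers, where Klf2 and Klf4 are well known, at 3.05 to 4.43 CPM. Of the 8 endothelial genes, Cldn5 had 0 to 3 counts per library, Ly6c1 0 to 2, Cdh5 1 to 10, Emcn 9 to 27, Kdr 13 to 37, Flt1 30 to 99, Tek 33 to 84 and Pecam1 46 to 117. In such mixed cultures a change in the number of cells of a type and a change in RNA per cell cannot be told apart.

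Kruppel-like factors bind GC-rich and CACCC sequences through a run of zinc fingers at their C-terminus, which is nearly alike across the family, and differ in their N-terminal parts. Klf2, Klf4, Klf5, Klf6 and Klf7 are known mostly as activators. Klf3 carries a motif that binds the co-repressor CtBP, and Klf9, Klf10, Klf11 and Klf13 bind the co-repressor Sin3. In neurons the family is known for setting how far axons grow, with Klf4 and Klf9 holding growth back and Klf6 and Klf7 promoting it.

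Promoter windows of 300 bases, from 250 before to 50 after the start of the gene, were at hand for 8 of the 10 genes in RefSeq (GRCm38.p6). The 250 bases before the start are printed for 3 genes that rose with bicuculline, Klf4, Klf6 and Klf9, and for Klf2, which had the lowest level per kilobase as a mean over the 20 libraries. Capitals mark the core of the cAMP response element, TGACG or its reverse complement CGTCA, the AP-1 site TGANTCA, and the MEF2 site, sequences known from genes that answer to neuronal activity. The windows are chr4:55532476-55532725 on the minus strand for Klf4, chr13:5861239-5861488 on the plus strand for Klf6, chr19:23140976-23141225 on the plus strand for Klf9 and chr8:72318812-72319061 on the plus strand for Klf2.
Klf4: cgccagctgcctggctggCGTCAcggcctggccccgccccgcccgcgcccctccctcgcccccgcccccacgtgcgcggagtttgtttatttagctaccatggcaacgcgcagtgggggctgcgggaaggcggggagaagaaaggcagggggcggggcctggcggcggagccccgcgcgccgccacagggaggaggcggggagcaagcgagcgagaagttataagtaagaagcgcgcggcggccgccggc
Klf6: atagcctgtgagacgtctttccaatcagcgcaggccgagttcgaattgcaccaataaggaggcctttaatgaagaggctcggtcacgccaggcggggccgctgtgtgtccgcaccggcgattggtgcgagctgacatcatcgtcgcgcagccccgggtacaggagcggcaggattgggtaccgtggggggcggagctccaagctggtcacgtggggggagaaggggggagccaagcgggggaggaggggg
Klf9: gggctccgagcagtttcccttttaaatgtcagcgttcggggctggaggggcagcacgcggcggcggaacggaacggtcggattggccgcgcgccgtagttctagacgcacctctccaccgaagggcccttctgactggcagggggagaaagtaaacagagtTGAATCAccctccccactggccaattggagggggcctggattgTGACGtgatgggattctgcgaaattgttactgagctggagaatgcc
Klf2: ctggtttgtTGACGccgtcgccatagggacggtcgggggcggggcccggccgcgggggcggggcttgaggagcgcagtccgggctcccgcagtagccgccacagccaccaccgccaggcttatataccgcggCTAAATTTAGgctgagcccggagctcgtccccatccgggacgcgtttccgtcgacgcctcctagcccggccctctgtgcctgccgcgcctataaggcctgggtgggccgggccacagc

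Positions are counted back from the start of the gene, with the base before it as -1. Klf4 held CGTCA at -232 to -228, Klf9 held TGACG at -46 to -42 and the AP-1 letters TGAATCA at -89 to -83, and Klf2 held TGACG at -241 to -237 and a MEF2 match at -118 to -109 that reads the same on both strands. In all, 5 of the 8 windows held TGACG on either strand, against 20.8% of the 32851 windows in the table, and none held the full element TGACGTCA, which contains the core and was in 1.79% of all windows. AP-1 letters were in Klf9 alone of the 8 (7.81% of all windows), the MEF2 site in Klf2 alone (1.86%), and the CArG box of the serum response element in none (1.63%). The GC box GGGCGG was in 7 of 8 windows, Klf9 being the exception (35.7% of all windows), and CACCC in 5 of 8 (57.5%). The 8 windows had 58.3% to 77.7% G and C, against a median of 52.7% over all windows. These are matches of letters on either strand, not sites of binding.

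Bicuculline for 1 h in DMSO raised 7 of the 10 genes and lowered 1. Klf4 rose most, then Klf5, Klf9 and Klf6, while Klf13, Klf7 and Klf11 rose by less and Klf10 fell. Of all genes tested 44.6% were called in this comparison, 20.02% higher and 24.5% lower, at an adjusted p under 0.05 in edgeR's quasi-likelihood test. Calls higher were 44.9% of all calls with TMM scaling and 21.2% with plain library size, which moved the median of all genes by -0.19 on the log2 scale. Of the 10 genes plain library size called 4 higher (Klf4, Klf5, Klf6 and Klf9) and 2 lower (Klf2 and Klf10). Of all 16959 genes tested it called 1836 higher and 6818 lower. The median log2 fold change of the 10 genes was 0.36, against -0.04 over all genes, and the groups did not overlap for 9 of the 10, against 47.4% of all genes. After 4 h in DMSO 4 genes were higher than in the same water libraries, Klf4, Klf5, Klf6 and Klf9, and Klf10 was lower, where 49.2% of all genes were called, 23.7% higher and 25.5% lower. The groups did not overlap for these 5 genes, against 52.5% of all genes. Higher calls there were 48.1% of all calls, and 18.8% with plain library size, which moved the median of all genes by -0.28. That scaling turned the balance of the 10 genes at 4 h to 3 higher (Klf4, Klf5 and Klf9) and 5 lower (Klf3, Klf7, Klf10, Klf11 and Klf13). Over all genes tested it called 1820 higher and 7867 lower at 4 h. The 2 comparisons share their 3 water libraries.

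**Figure D1:**
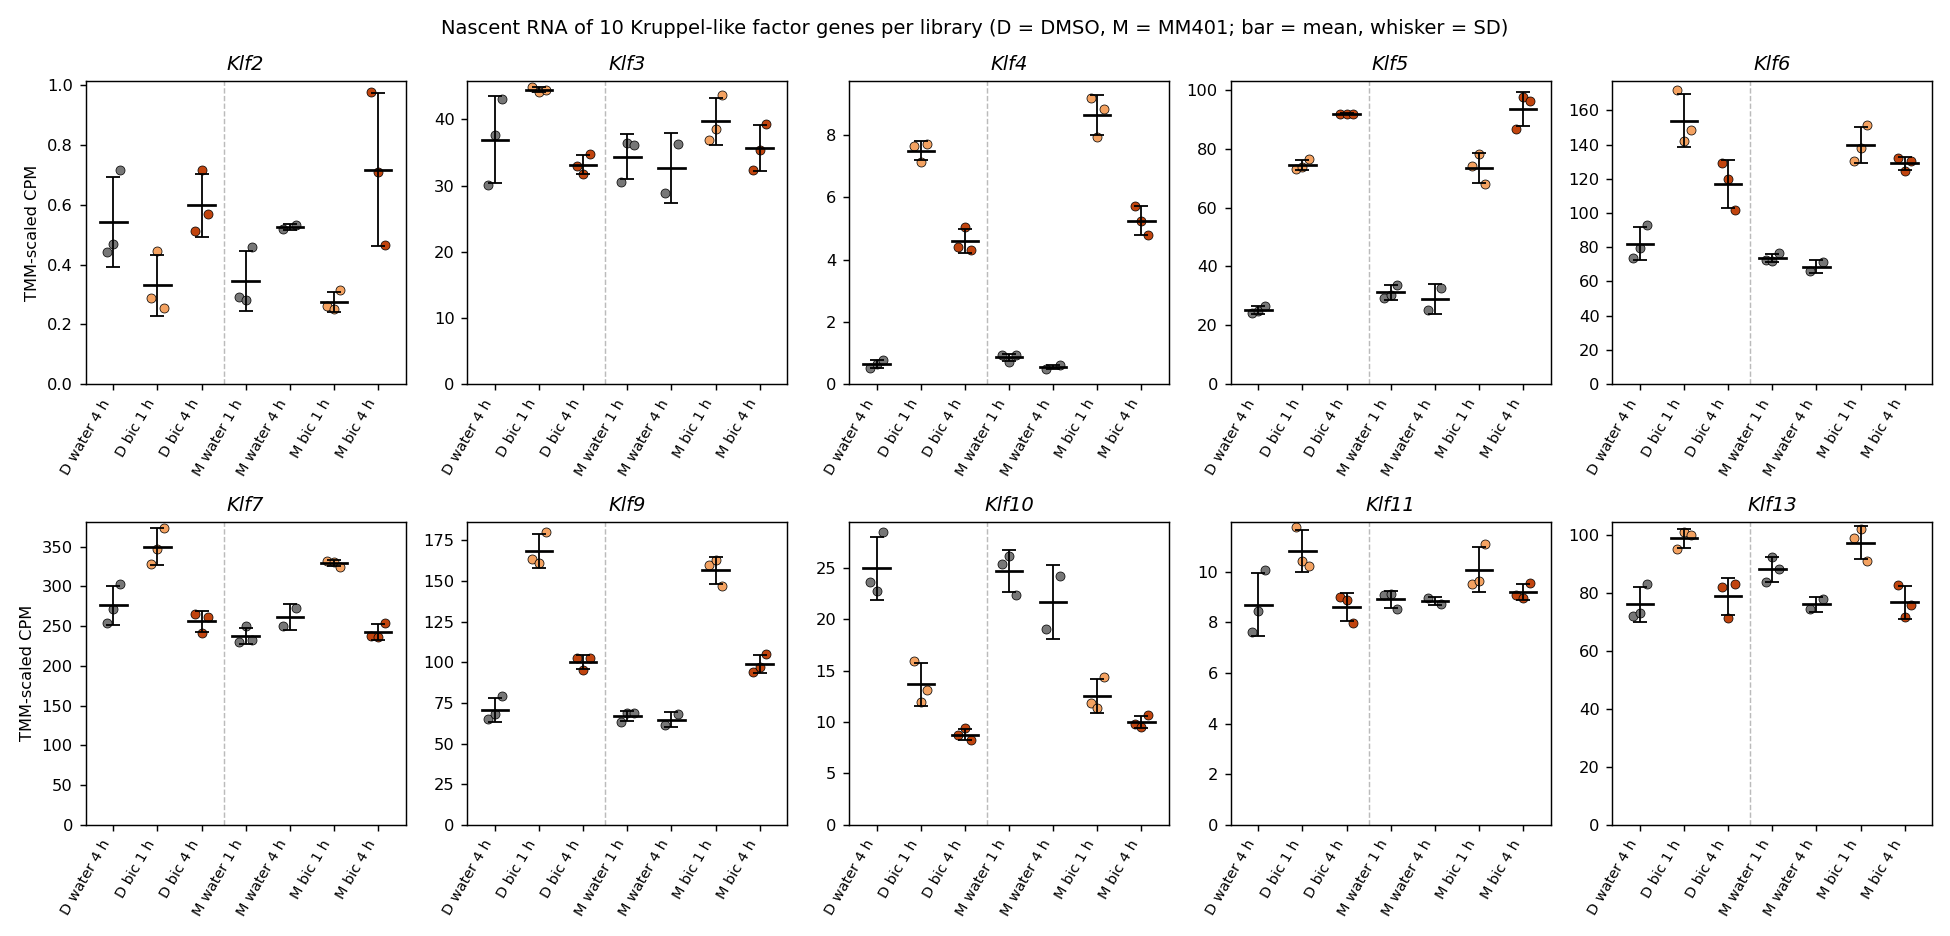
TMM-scaled CPM of each gene on a linear axis from 0, with 1 point per library for the 7 groups (D, DMSO; M, MM401; bic, bicuculline); bars are means and whiskers SD. Klf4 and Klf5 stand clear of every water library in all bicuculline groups, and Klf10 lies below every water library in them.

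Klf4, one of the factors that reprogram somatic cells to pluripotency, was almost silent in water. Its level was 0.516, 0.645 and 0.783 CPM in DMSO with water, 7.65, 7.15 and 7.71 CPM after 1 h of bicuculline, and 4.40, 5.03 and 4.32 CPM after 4 h. All bicuculline libraries lay above all water libraries, and the 1 h libraries above the 4 h libraries. Against water the log2 fold change was 3.51 ± 0.14 (SE, n = 3 against 3, edgeR adjusted p = 2.0e-14) at 1 h and 2.80 ± 0.14 at 4 h. In MM401 the water libraries had 0.922, 0.727 and 0.934 CPM at 1 h and 0.503 and 0.602 CPM at 4 h, and the bicuculline libraries 9.19, 7.93 and 8.83 CPM at 1 h and 5.72, 5.26 and 4.79 CPM at 4 h. Klf4 was thus again higher in every bicuculline library, by 3.33 ± 0.14 at 1 h and 3.25 ± 0.18 at 4 h on the log2 scale.

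Klf5, a growth-promoting factor of epithelium and smooth muscle, was the gene of the 10 that kept rising. In DMSO it had 24.1, 24.8 and 26.6 CPM in water, 73.2, 73.9 and 76.4 CPM after 1 h and 91.9, 91.7 and 92.0 CPM after 4 h of bicuculline. The 3 groups did not overlap, and the 4 h libraries lay closer together than those of any other group. The log2 fold change over water was 1.57 ± 0.078 at 1 h and 1.87 ± 0.078 at 4 h (edgeR adjusted p = 5.5e-13 and 4.8e-14). In MM401 it rose from 29.2, 30.4 and 33.9 CPM to 74.2, 78.1 and 68.1 CPM at 1 h, and from 25.3 and 32.5 CPM to 86.9, 97.4 and 96.1 CPM at 4 h. The log2 fold changes there were 1.24 ± 0.077 and 1.69 ± 0.090.

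Klf6, a tumour suppressor that also promotes axon growth, had 73.8, 79.5 and 92.8 CPM in DMSO with water. It reached 172, 142 and 148 CPM after 1 h of bicuculline and 129.5, 119.7 and 102 CPM after 4 h. Both bicuculline groups lay above water without overlap, and the 4 h libraries below the 1 h libraries. Klf6 thus had a log2 fold change of 0.91 ± 0.089 at 1 h and 0.51 ± 0.089 at 4 h over water (edgeR adjusted p = 6.8e-08 and 7.1e-05). With plain library size the 4 h value was 0.23 and no longer called (adjusted p = 0.108). In MM401 the libraries had 72.6, 72.0 and 76.7 CPM in water and 130.4, 138 and 151 CPM with bicuculline at 1 h, and 65.9 and 71.4 CPM in water against 132, 124.5 and 130.4 CPM at 4 h. Klf6 rose by 0.92 ± 0.090 at 1 h and 0.91 ± 0.10 at 4 h there.

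Klf7, which acts in the outgrowth of axons and dendrites, was higher after 1 h only. In DMSO it had 254, 272 and 303 CPM in water, 328, 347 and 374 CPM after 1 h of bicuculline and 265.7, 241 and 261.1 CPM after 4 h. The 1 h libraries lay above both other groups, and those at 4 h overlapped with water. Klf7 rose by 0.34 ± 0.068 at 1 h on the log2 scale (edgeR adjusted p = 3.4e-04), and its 4 h value, -0.11 ± 0.068, was not called (adjusted p = 0.195). In MM401 it rose by 0.47 ± 0.069 at 1 h, from 230.5, 249.6 and 233 CPM to 332, 330.4 and 325 CPM, and had a log2 fold change of -0.11 ± 0.076 at 4 h, not called. The DMSO call at 1 h was lost with plain library size (0.14, adjusted p = 0.149) and with the low-count library included (adjusted p = 0.0986). Without the first DMSO water library the 4 h value in DMSO was called lower, at -0.17 (adjusted p = 0.0490), and with plain library size at -0.39 (adjusted p = 3.9e-04). The 1 h value in MM401 was 0.26 with plain library size and still called (adjusted p = 0.0139).

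Klf2, which holds endothelium and T cells in a quiet state, had only 12 to 61 counts per library. Its level was 0.442, 0.469 and 0.717 CPM in DMSO with water, 0.290, 0.445 and 0.256 CPM after 1 h of bicuculline and 0.513, 0.717 and 0.568 CPM after 4 h. The water libraries overlapped with both bicuculline groups, and the 1 h and 4 h groups did not overlap with each other. The log2 fold change over water was -0.69 ± 0.30 at 1 h (edgeR adjusted p = 0.0683) and 0.14 ± 0.28 at 4 h (adjusted p = 0.716), neither called. The 1 h value was called lower with plain library size (-0.88), without the second bicuculline library (-0.99) and without the first water library (-0.80). In MM401 the values were -0.31 ± 0.34 and 0.44 ± 0.32. The summed endothelial markers beside it spanned 3.51 to 3.80 CPM in DMSO with water, 3.79 to 4.18 CPM after 1 h and 3.17 to 3.50 CPM after 4 h of bicuculline, and none of the 5 tested markers was called in any comparison. The part of such cells in the level of Klf2 was not tested.

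Of the factors that bind Sin3, Klf9 rose and Klf10 fell. Klf9, a target of glucocorticoid and thyroid hormone receptors that acts in the late maturation of neurons, had 65.0, 68.5 and 79.2 CPM in DMSO with water. It reached 164, 161 and 180.5 CPM after 1 h of bicuculline and 103, 95.2 and 102 CPM after 4 h, with no overlap among the 3 groups. The log2 fold change was 1.25 ± 0.072 at 1 h and 0.50 ± 0.071 at 4 h (edgeR adjusted p = 7.0e-12 and 5.0e-06). The 4 h value was 0.22 with plain library size, still called (adjusted p = 0.0354). In MM401 it was 1.23 ± 0.072 and 0.61 ± 0.081, from 63.4, 68.6 and 68.5 CPM to 160.2, 163 and 147 CPM at 1 h and from 61.4 and 68.1 CPM to 94.3, 97.3 and 105 CPM at 4 h.

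Klf10, an early gene induced by TGF-beta that represses in part through Sin3, was the 1 gene of the 10 that fell with bicuculline in all 4 comparisons with water. Its level was 23.7, 22.8 and 28.5 CPM in DMSO with water, 16.0, 11.9 and 13.1 CPM after 1 h and 8.72, 9.38 and 8.25 CPM after 4 h. The 3 groups did not overlap, and the 4 h libraries were the lowest of all. Against water Klf10 had a log2 fold change of -0.87 ± 0.12 at 1 h and -1.51 ± 0.12 at 4 h (edgeR adjusted p = 4.0e-06 and 1.5e-09). In MM401 it had 25.4, 26.2 and 22.3 CPM in water and 11.8, 11.4 and 14.4 CPM with bicuculline at 1 h, and 19.1 and 24.2 CPM in water against 9.77, 9.54 and 10.7 CPM at 4 h. The log2 fold changes were -0.97 ± 0.12 and -1.11 ± 0.13.

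Klf11 and Klf13 moved less. Klf11, a relative of Klf10 that also answers to TGF-beta, had 7.61, 8.43 and 10.1 CPM in DMSO with water and 11.8, 10.4 and 10.2 CPM after 1 h of bicuculline, and so rose by 0.31 ± 0.095 on the log2 scale (edgeR adjusted p = 0.0110). The lowest bicuculline library lay just above the highest water library. The call was lost without the first bicuculline library (0.25, adjusted p = 0.0661), without the first water library (0.23, adjusted p = 0.0632) and with plain library size (0.11, adjusted p = 0.470). Klf13, a regulator of chemokine genes in T cells, had 72.1, 73.2 and 83.0 CPM in water and 95.2, 101.1 and 100 CPM after 1 h, a log2 fold change of 0.38 ± 0.069 (adjusted p = 1.4e-04). With plain library size it was 0.18 and not called (adjusted p = 0.0686). At 4 h both genes were within 0.1 of water on the log2 scale in DMSO and in MM401 with TMM scaling. Both were called lower at 4 h in DMSO with plain library size, Klf11 at -0.30 (adjusted p = 0.0471) and Klf13, turned from 0.05, at -0.23 (adjusted p = 0.0215). At 1 h in MM401 neither was called, with 0.18 ± 0.096 for Klf11 and 0.14 ± 0.069 for Klf13. Klf13 was called in MM401 without the third bicuculline library (0.20, adjusted p = 0.0352). With MM401 and water Klf13 had 83.6, 92.3 and 88.4 CPM at 1 h and 74.3 and 77.8 CPM at 4 h, without overlap. Its log2 difference of 4 h minus 1 h there was -0.21 ± 0.078, not called (edgeR adjusted p = 0.277), and that of Klf11 was -0.01 ± 0.11. The 1 h values in DMSO were set against water for 4 h, and the part of time in them was not tested. In the count table Klf13 overlaps E030018B13Rik on the opposite strand, so reads from both cannot be told apart where strand was not used.

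Klf3, the family's CtBP-binding repressor among the 10, was not called against water in any of the 4 comparisons. It had 30.1, 37.7 and 43.1 CPM in DMSO with water, 44.9, 44.1 and 44.5 CPM after 1 h of bicuculline and 33.0, 31.8 and 34.8 CPM after 4 h. The 1 h libraries lay above the water libraries, which were spread widely, and the 4 h libraries lay within their range. The log2 fold change was 0.27 ± 0.11 at 1 h (edgeR adjusted p = 0.0581) and -0.16 ± 0.11 at 4 h (adjusted p = 0.257). With the replicate number as a block the 1 h value was called, at 0.28 (adjusted p = 0.00446), and it was called too in DESeq2 (0.31), with DESeq2's size factors in edgeR (0.31), in a fit of the compared groups alone (0.29) and without the third water library (0.40). At 4 h Klf3 was called lower with plain library size (-0.44) and without the first water library (-0.28). In MM401 the values were 0.21 ± 0.11 and 0.13 ± 0.13, not called, and the 1 h value was called with the block, at 0.21 (adjusted p = 0.0318). The summed astrocyte markers moved with Klf3 over the 3 DMSO water libraries, at 1170, 1740 and 1900 CPM, and their part in its spread was not tested.

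**Figure D2:**
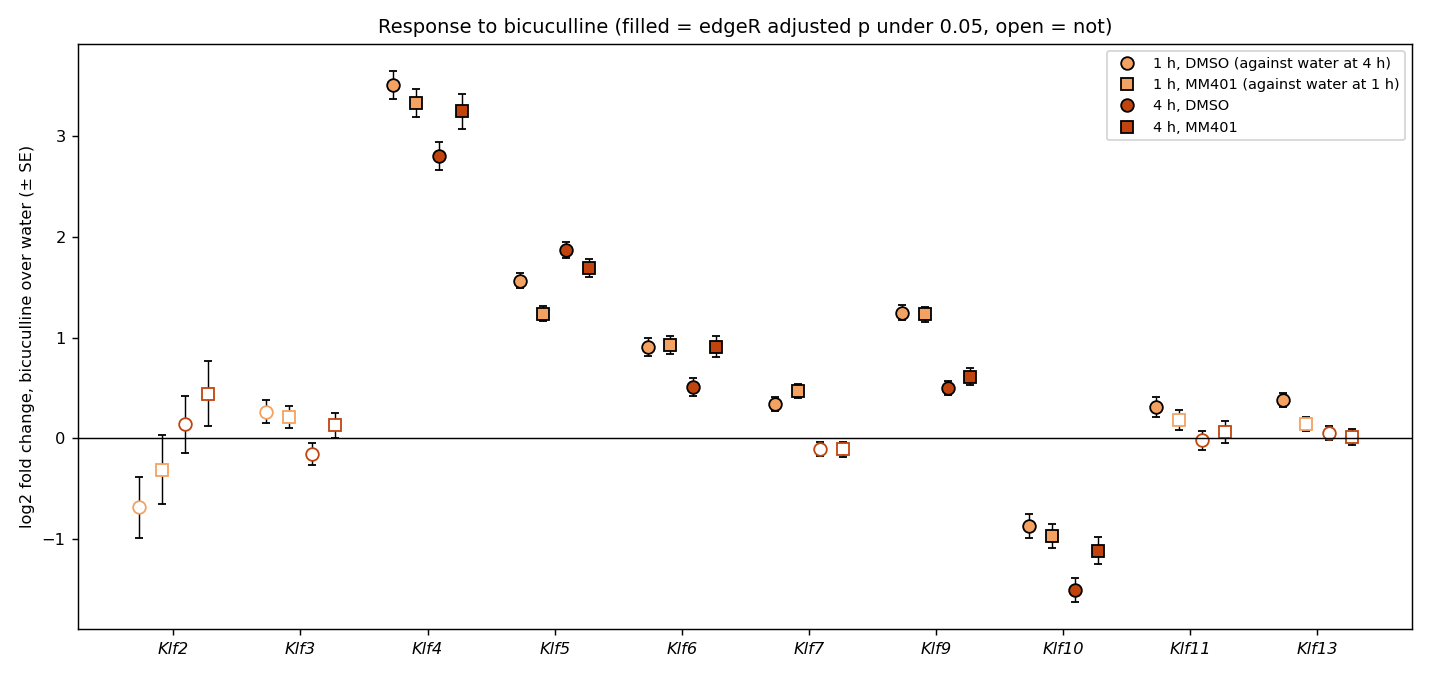
Log2 fold change of bicuculline over water for each gene with its SE, for 1 h and 4 h in DMSO (circles) and MM401 (squares); filled symbols had an edgeR adjusted p under 0.05. Klf4, Klf5, Klf6 and Klf9 are filled above 0 in all 4 comparisons and Klf10 below 0, from 3.51 for Klf4 to -1.51 for Klf10, both in DMSO.

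In MM401, where each time had its own water, bicuculline for 1 h raised 5 genes, Klf4, Klf5, Klf6, Klf7 and Klf9, and lowered Klf10, against 39.9% of all genes called, 18.1% higher and 21.8% lower. For 4 h it raised Klf4, Klf5, Klf6 and Klf9 and lowered Klf10, against 44.6%, with 22.98% higher and 21.7% lower. Groups did not overlap for 8 of the 10 genes at 1 h (51.1% of all genes) and for 6 at 4 h, where water had 2 libraries (66.6% of all genes). Higher calls were 45.4% of all calls at 1 h and 51.5% at 4 h, and 16.3% and 40.3% with plain library size, which moved the median of all genes by -0.21 at 1 h. The medians of the 10 genes were 0.34 and 0.29 on the log2 scale, against values within 0.02 of 0 over all genes. Microglial markers moved with bicuculline for 4 h in MM401, where 5 of 7 tested were called higher and their sum was 44.4 to 51.7 CPM against 32.9 to 38.3 CPM in water, and in DMSO 1 of 7 was. Of 8 astrocyte markers 5 were called higher at 1 h and 4 at 4 h in MM401, and 3 higher and 1 lower at 1 h and 1 higher at 4 h in DMSO. Of 8 neuronal markers 3 were called higher and 2 lower at 1 h and 5 higher and 2 lower at 4 h in DMSO, and 4 higher and 1 lower at 1 h and 4 higher and 2 lower at 4 h in MM401. Of 8 oligodendrocyte markers, whose sum was 171 to 229 CPM over the libraries, 2 were called higher at 1 h and 3 at 4 h in DMSO and in MM401 alike, and of 6 mural and fibroblast markers 1 to 2 in each. The part of these cells in the changes of the 10 genes was not tested. Under plain library size Klf3, Klf11 and Klf13 turned below 0 at 1 h in MM401 without being called.

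Between 1 h and 4 h of bicuculline most of the 10 genes went down. In DMSO all 10 were called, 8 lower and 2 higher, where 34.2% of all genes were called, 15.2% lower and 19.1% higher. Klf9 fell most, by 0.75 ± 0.071 on the log2 scale (edgeR adjusted p = 3.5e-08), and Klf4 fell by 0.71 ± 0.12. Klf10 fell by 0.64 ± 0.12, Klf7 by 0.45 ± 0.068, Klf3 by 0.42 ± 0.11 and Klf6 by 0.40 ± 0.089. Klf11 and Klf13 each fell by 0.33, with an SE of 0.096 and 0.069. Klf5 rose by 0.30 ± 0.075 (adjusted p = 0.00291) and Klf2 by 0.82 ± 0.30 (adjusted p = 0.0362). The 1 h and 4 h libraries did not overlap for any of the 10, where 43.3% of all genes showed no overlap. The summed neuronal markers were 5940 to 6220 CPM at 1 h and 6790 to 7110 CPM at 4 h in DMSO, with 4 of 8 called higher and 1 lower, and 5850 to 6260 CPM and 6820 to 6960 CPM in MM401, with 3 higher and 2 lower. Microglial markers were called higher for 2 of 7 in DMSO and 4 of 7 in MM401, oligodendrocyte markers for 1 and 3 of 8, astrocyte markers were 1 higher and 2 lower of 8 in each, and 1 of 6 mural and fibroblast markers was lower in each. Their part in the changes of the 10 genes between these times was not tested.

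The call of Klf2 was the least firm of these. It was lost without the first or the third 1 h library (0.72 and 0.65), without the second or the third 4 h library (0.68 and 0.87), with plain library size (0.74), with all 21 libraries (0.79) and in a fit of the 2 groups alone (0.80). Klf11 lost its call without the first 1 h library (-0.26) and without the third 4 h library (-0.28), and Klf5 with plain library size (0.22). Higher calls were 55.7% of all calls in this comparison and 39.2% with plain library size.

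In MM401 7 of the 10 were called between 1 h and 4 h of bicuculline, 5 lower and 2 higher, where 33.6% of all genes were called, 16.02% lower and 17.5% higher. The libraries of the 2 times did not overlap for these 7 genes, against 45.1% of all genes. Klf4 fell by 0.72 ± 0.12, Klf9 by 0.66 ± 0.071, Klf7 by 0.44 ± 0.069, Klf13 by 0.34 ± 0.069 and Klf10 by 0.33 ± 0.12, and Klf2 rose by 1.36 ± 0.31 and Klf5 by 0.35 ± 0.075. Klf3 (-0.16 ± 0.11), Klf6 (-0.12 ± 0.089) and Klf11 (-0.13 ± 0.096) were not called. Klf2 had 0.262, 0.250 and 0.314 CPM at 1 h and 0.977, 0.711 and 0.467 CPM at 4 h, so its libraries did not overlap but differed widely at 4 h. Klf10 lost its call without the third 1 h library (-0.24), without the first or the second 4 h library (-0.31 and -0.30), with plain library size (-0.26) and with all 21 libraries (-0.35). Higher calls over all genes were 52.3% of calls, and 65% with plain library size. In the 2 MM401 water groups, where time alone differed, none of the 10 was called between 4 h and 1 h, and 0.867% of all genes were, 0.265% higher and 0.601% lower; the groups did not overlap for 5 of the 10, against 31.9% of all genes. The values there ran from -0.64 ± 0.20 for Klf4 (edgeR adjusted p = 0.163) to 0.61 ± 0.34 for Klf2 (adjusted p = 0.616), 2 of the 10 had an unadjusted p under 0.05 (10% of all genes did), and DESeq2 called none.

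**Figure D3:**
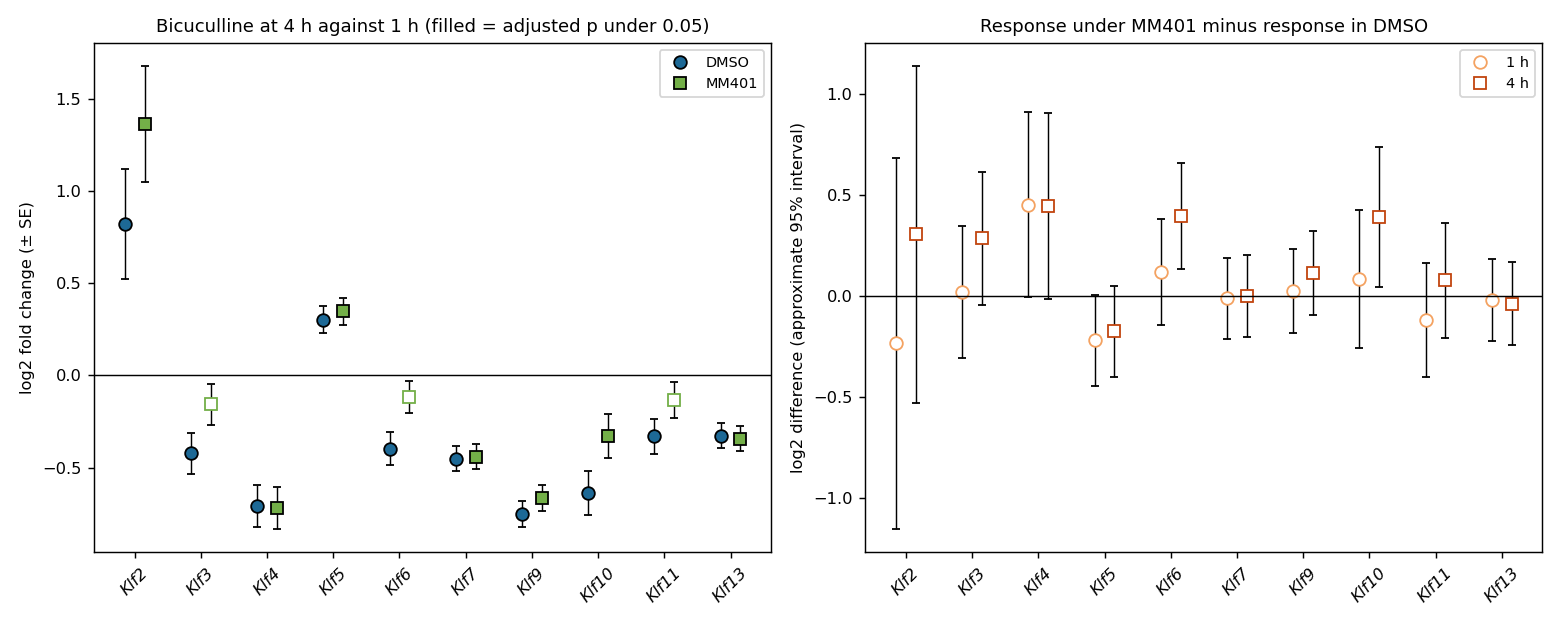
Left, log2 fold change between 4 h and 1 h of bicuculline with its SE in DMSO (circles) and MM401 (squares), filled where the edgeR adjusted p was under 0.05; right, the response to bicuculline in MM401 minus that in DMSO with an approximate 95% interval, both times against water at 4 h. Klf2 and Klf5 lie above 0 on the left, the other 8 below. All points on the right are drawn open whatever their p, and no gene was called there at either time.

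None of the 10 genes was called between MM401 and DMSO. In water for 4 h the log2 difference between MM401 and DMSO ran from -0.26 ± 0.10 for Klf6 to 0.20 ± 0.087 for Klf5, with no edgeR adjusted p under 0.289, where 0.0826% of all genes were called. With bicuculline for 1 h it ran from -0.29 ± 0.34 for Klf2 to 0.21 ± 0.11 for Klf4 (0.00590% of all genes called), and for 4 h from -0.08 ± 0.068 for Klf7 to 0.25 ± 0.28 for Klf2 (0% called). The 8 astrocyte markers had a median of -0.40 for MM401 against DMSO in water, with an unadjusted p under 0.05 for 6 and none called, and their part in these differences was not tested. The groups did not overlap for 1, 2 and 1 of the 10 genes, against 26.05%, 7.15% and 17.5% of all genes. An unadjusted p under 0.05 was found for 2, 0 and 0 of the 10 genes, against 12.9%, 3.18% and 7.72% of all genes, and DESeq2 called none of them in any of the 3 comparisons. For Klf4 the 95% interval was -0.65 to 0.15 in water, -0.02 to 0.43 with bicuculline for 1 h and -0.03 to 0.43 for 4 h. For Klf5 it was 0.03 to 0.37, -0.17 to 0.13 and -0.12 to 0.17. A p that missed the threshold does not show that MM401 left the genes as they were. The intervals are normal approximations and give roughly the sizes that the data allow.

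The difference of the responses was tested directly. For Klf6 the log2 response to bicuculline for 4 h in MM401 minus that in DMSO was 0.40 ± 0.13 (95% interval 0.14 to 0.66), with an edgeR adjusted p of 0.232 that did not pass. No gene of the table was called in this test (0%). Klf10 differed by 0.39 ± 0.18 (0.05 to 0.74) and Klf4 by 0.44 ± 0.24 (-0.02 to 0.91), and Klf5 by -0.18 ± 0.11 (-0.40 to 0.05). Klf6 had 82.0 ± 9.71 CPM (SD, n = 3) in DMSO with water and 68.7 ± 3.92 CPM (n = 2) in MM401 with water, and 117 ± 14.0 and 129 ± 3.95 CPM with bicuculline. Without the first DMSO water library the difference of Klf6 was called, at 0.47 (adjusted p = 0.0319), and 1551 genes were called in all, against 0 with it. That library had the lowest summed astrocyte markers of its group, 1170 CPM against 1740 and 1900 CPM, and also the lowest microglial (34.7 against 45.4 and 44.8 CPM), oligodendrocyte (171 against 209 and 227 CPM) and mural and fibroblast sums (10.2 against 12.4 and 11.4 CPM). Its neuronal sum was the highest, 6130 CPM against 5950 and 5610 CPM. Over all libraries the medians of the 8 astrocyte markers in the difference of responses were 0.38 at 4 h and 0.56 at 1 h, with none called. The part of these cells in the differences was not tested. For 1 h, with both responses set against water for 4 h, the differences ran from -0.24 ± 0.47 for Klf2 to 0.45 ± 0.23 for Klf4, with no adjusted p under 0.66. Unadjusted p under 0.05 was reached by 2 of the 10 genes at 4 h and 0 at 1 h, against 15% and 7.82% of all genes, and DESeq2 called none of the 10 at either time.

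Levels of different genes are compared per kilobase of the deposited gene length, which spans introns and ran from 2594 bases for Klf2 to 85720 bases for Klf7. In mm10, as the count table gives it, Klf4 lies at chr4:55527136-55532475 on the minus strand, Klf5 at chr14:99298690-99313409 on the plus strand and Klf10 at chr15:38291463-38300711 on the minus strand. The lower coordinate of each is 1 base before that of the RefSeq gene, which on the minus strand is the end of the gene. RefSeq places predicted genes in the spans of Klf3 (Gm38457 and Gm31684), Klf7 (Gm13748), Klf10 (Gm35248) and Klf13 (Gm27252), and the count table places microRNA genes in Klf7 and Klf9, so part of their counts may come from these. Over the 20 libraries Klf6 was highest at 12.5 CPM per kb, followed by Klf5 at 4.17, Klf9 at 4.12, Klf7 at 3.27, Klf10 at 1.77, Klf13 at 1.62, Klf3 at 1.39, Klf11 at 0.818, Klf4 at 0.783 and Klf2 at 0.183. In DMSO with water Klf4 was the lowest at 0.121 ± 0.025 CPM per kb (SD, n = 3), and after 1 h of bicuculline it stood at 1.405 ± 0.057, between Klf10 at 1.48 ± 0.23 and Klf11 at 0.947 ± 0.073. Klf5 rose from 1.71 ± 0.087 to 6.24 ± 0.010 CPM per kb at 4 h. Klf10 sank from 2.70 ± 0.33 to 0.950 ± 0.061.

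**Figure D4:**
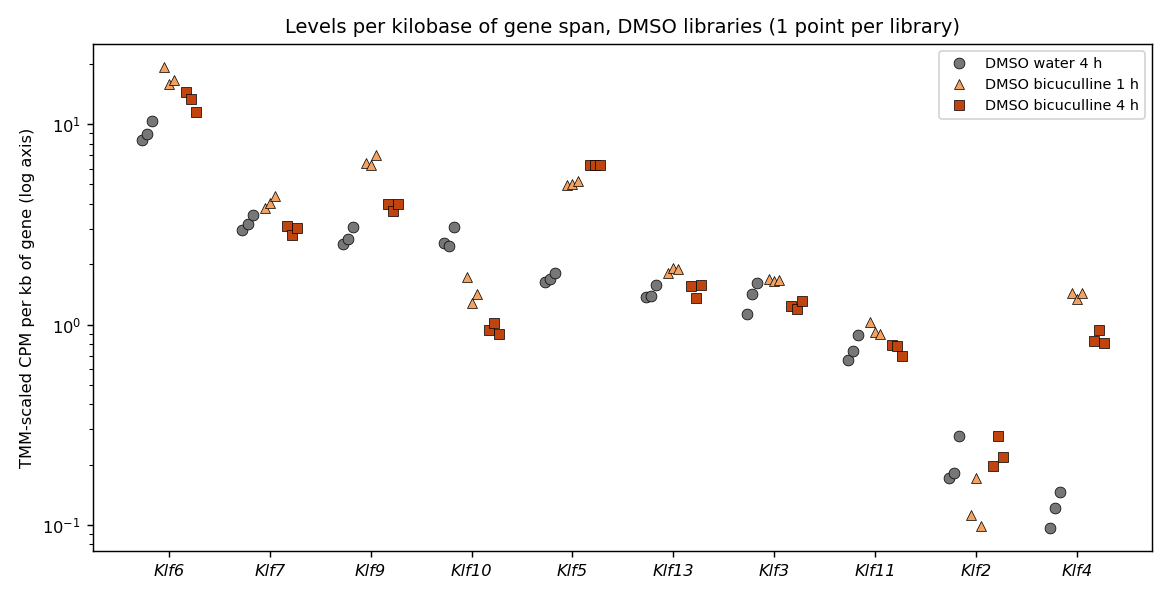
TMM-scaled CPM per kilobase of gene span on a log axis, 1 point per DMSO library, with genes ordered by their mean in water. Klf4 starts lowest at 0.121 and climbs past Klf2 and Klf11 at 1 h, and Klf5 lies above Klf7, Klf9 and Klf10 at 4 h.

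The order of the groups differed between the genes. Klf4 ran from MM401 with water for 4 h (0.552 CPM) to MM401 with bicuculline for 1 h (8.65 CPM), 15.7 times apart. Its water groups overlapped with their neighbours in this order, and the bicuculline groups lay above them. Klf5 was lowest in DMSO with water and highest in MM401 with bicuculline for 4 h, 3.71 times apart, and neighbouring groups overlapped except between water and 1 h and between 1 h and 4 h of bicuculline. Klf9 spanned 2.6 times and Klf6 2.24 times, each highest in DMSO with bicuculline for 1 h. Klf10 ran the other way, lowest in DMSO with bicuculline for 4 h, with a span of 2.84 times. Klf7, Klf3, Klf13 and Klf11 spanned 1.47, 1.36, 1.3 and 1.25 times, and all neighbouring groups of Klf11 overlapped. Klf2 spanned 2.61 times, from MM401 with bicuculline for 1 h to the same for 4 h.

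Among themselves Klf4 and Klf6 were most alike over the 20 libraries (Pearson r = 0.956 of log2 CPM), and Klf4 correlated with Klf5 at 0.931 and with Klf9 at 0.911. Klf10 ran against Klf5 (r = -0.941) and Klf4 (r = -0.824). These values follow the shared groups of the libraries and are given as a description. Outside the family, the 3 most alike of 11630 named genes were Sik1, Nrn1 and Adamts1 for Klf4 (r = 0.994, 0.992 and 0.99), Bdnf, Sipa1l2 and Plod2 for Klf5 (0.994, 0.992 and 0.991), Btg1, Flrt3 and Arpp19 for Klf6 (0.986, 0.979 and 0.977), and Coq10b, Btg2 and Dusp14 for Klf9 (0.99, 0.988 and 0.986). For Klf13 they were Ret, Gna14 and Il6ra (0.952, 0.951 and 0.948), and for Klf10 Exosc1, Neurl1b and Vash1 (0.973, 0.971 and 0.967). The best matches of Klf3, Klf11 and Klf2 were weaker, with Fads2 at 0.894, Kcnf1 at 0.876 and Igdcc3 at 0.848.

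Of the other 16 genes of the Kruppel-like and Sp family, 14 were tested. In DMSO 3 were called higher and 1 lower after 1 h of bicuculline, and 4 higher and 1 lower after 4 h, where 44.6% and 49.2% of all genes were called. In MM401 4 were higher and 1 lower after 1 h, and 5 higher and 2 lower after 4 h, where 39.9% and 44.6% of all genes were. Klf14, a Sin3-binding relative, was nearly silent in water and passed the filter on low counts only through its bicuculline libraries, so its calls are given as a description. Its libraries in DMSO had 5, 1 and 2 counts in water, 12, 22 and 12 counts after 1 h and 23, 39 and 32 counts after 4 h of bicuculline. Its level went from 0.0435 ± 0.043 CPM (SD, n = 3) in water to 0.458 ± 0.098 CPM at 4 h. Sp8, a developmental factor also found in interneurons, rose by 0.88 ± 0.12 and 0.63 ± 0.12, and Klf12, a CtBP-binding repressor, by 0.25 ± 0.056 and 0.32 ± 0.056. Klf16 fell at 4 h, by 0.70 ± 0.13. With plain library size the counts in DMSO were 2 higher and 3 lower at 1 h and 2 higher and 6 lower at 4 h. Of all 16959 genes that scaling called 1836 higher and 6818 lower at 1 h, and 1820 higher and 7867 lower at 4 h. Klf12 was then not called (0.06 and 0.04), and Sp8 was 0.35 at 4 h. Sp1 and Sp2 were called in none of the 4 comparisons with water under TMM scaling, and both were called lower at 4 h in DMSO with plain library size (-0.38 and -0.45).

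Of 10 partners of the family, 1 was called higher and 5 lower after 1 h of bicuculline in DMSO, and 4 higher and 3 lower after 4 h (44.6% and 49.2% of all genes were called), with medians of -0.11 and 0.01 on the log2 scale. The 2 CtBP genes moved apart: Ctbp1 fell by 0.34 ± 0.070 and 0.45 ± 0.070, and Ctbp2 rose by 0.34 ± 0.058 and 0.26 ± 0.057. Sin3b fell by 0.20 at 1 h and by 0.21 at 4 h. Wwp1, a ubiquitin ligase known to act on Klf5, was close to water at 1 h and rose by 0.67 ± 0.064 at 4 h, from 133 ± 4.24 to 213 ± 13.5 CPM. Plain library size gave 0 higher and 7 lower at 1 h and 1 higher and 6 lower at 4 h. Of all 16959 genes it called 1836 higher and 6818 lower at 1 h, and 1820 higher and 7867 lower at 4 h. Ctbp2 was then not called (0.14 at 1 h, and turned to -0.01 at 4 h). Wwp1 was then called lower at 1 h (-0.21, adjusted p = 0.00791) and its rise at 4 h was 0.40, while Ctbp1 (-0.54 and -0.73) and Sin3b (-0.39 and -0.49) were further below water. Sin3b at 1 h also lost its call in 6 of 13 alternatives.

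Among 14 genes of the paths that act on the family, 4 were called higher and 5 lower after 1 h in DMSO, and 6 higher and 5 lower after 4 h, against 44.6% and 49.2% of all genes called. Srf, the factor that binds the CArG box, rose by 0.80 ± 0.11 at 1 h and was lower than in water by 0.42 at 4 h, with 8.12 ± 1.43, 14.2 ± 2.05 and 6.06 ± 0.41 CPM in water, at 1 h and at 4 h. Mef2c rose by 0.59 ± 0.088 and 0.65 ± 0.088. Mef2c lost its call at both times when the low-count library was included. Plain library size gave 3 higher and 5 lower genes of the list at 1 h and 1 higher and 7 lower at 4 h. Of all 16959 genes it called 1836 higher and 6818 lower at 1 h, and 1820 higher and 7867 lower at 4 h. The kinase gene Mapk7 (ERK5), which acts upstream of Klf2 and Klf4 in endothelium, fell by 0.43 ± 0.11 and 0.56 ± 0.11 (the 1 h call was lost in a fit of the compared groups alone), and Map2k5, its activator, fell at 4 h by 0.30 ± 0.047. The TGF-beta receptor gene Tgfbr1 rose by 0.79 ± 0.062 and 0.38 ± 0.062 (0.10 and not called at 4 h with plain library size), where Klf10, induced by this path in other cells, was lower. The thyroid hormone receptor gene Thra fell by 0.44 at 1 h and 0.28 at 4 h, where Klf9 was higher. The other thyroid hormone receptor gene, Thrb, was not called at 1 h (0.05 ± 0.12) and rose by 0.41 ± 0.12 at 4 h, a call lost with plain library size (0.15) and without the second or the third water library. At 4 h plain library size gave Mef2c 0.38, Srf -0.71, Map2k5 -0.57, Mapk7 -0.84 and Thra -0.56, all still called.

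Of 6 textbook targets of the family, 5 were tested, and 2 were called higher in DMSO at both times, against 44.6% of all genes called at 1 h and 49.2% at 4 h. Cdkn1a, the cell cycle inhibitor p21 and a known target of Klf4 and Klf6, rose by 0.51 ± 0.11 at 1 h and 0.75 ± 0.11 at 4 h, from 14.2 ± 2.37 CPM in water to 20.3 ± 2.01 and 24.1 ± 0.92 CPM. With plain library size the 1 h value of Cdkn1a was 0.32 and not called (adjusted p = 0.0582), and the 4 h value was 0.47. Smad7, an inhibitor of TGF-beta signalling, rose by 1.15 ± 0.087 and 0.70 ± 0.087 (0.42 at 4 h with plain library size). The endothelial targets Nos3, S1pr1 and Thbd were not called in DMSO at either time. In MM401 2 of the 5 were called higher at 1 h and 3 at 4 h, against 39.9% and 44.6% of all genes called, the third being S1pr1 (0.49 ± 0.16). Of the 10 partners 1 was higher and 2 lower at 1 h and 3 higher and 2 lower at 4 h in MM401, and of the 14 upstream genes 4 higher and 2 lower at 1 h and 4 higher and 4 lower at 4 h.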

How the data were processed

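Read counts per gene, over the whole gene span, were used as the authors deposited them; per the file headers they have the columns of featureCounts, which the submitters' processing notes name with build mm10, Bowtie2, UMI-tools, deepTools and DESeq2. Use of strand, filters and the annotation release are not given in the sources used here. The 10 genes and all gene lists were chosen with earlier results of these data known; named genes are the 10, list genes and the 3 most alike by Pearson r over log2 CPM (prior count 2, mean of at least 2 CPM), which for Klf7 are not reported here.

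edgeR 4.0.16 in R 4.3.3 was fitted on 20 libraries (TMM, filterByExpr with a minimum count of 10 and total of 15, 1 mean per group, robust quasi-likelihood, Benjamini-Hochberg over 16959 genes, threshold 0.05, two-sided) and tested on simulated data. Libraries held at least 49886348 counts; the biological coefficient of variation was 8.77%. Alternatives were DESeq2 1.42.0, 2 other scalings, no filter, 21 libraries, a replicate block, the compared groups alone and each library left out.

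The labels number the replicates without saying what a number stands for. The numbers in the library titles run in consecutive sets, each with 1 library of every group under the same replicate number. Deviations of same-numbered libraries correlated at a median of 0.089 over 27 pairs (-0.229 to 0.241). In 1 of 10 comparisons, MM401 against DMSO with bicuculline for 4 h, all 3 pairs were over 0.1 (0.150, 0.107 and 0.172). Elsewhere p-values measure the spread between these samples. Start positions in promoter windows are those of RefSeq's table; Klf5 and Klf10 windows were not used here.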

Additional observations from a re-analysis of the deposited data

How the results depend on the processing

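For fold changes of the 10 genes that were called or at least 0.1 in size, 1177 values over the alternatives kept their direction and their side of the threshold, 22 lost the call, 15 gained it and 15 changed sign, none of them called to begin with. For the 28 uncalled fold changes under 0.1 in size, 79 of 393 values changed sign and 2 gained a call, both after 4 h in DMSO with plain library size: Klf11 at -0.30 and Klf13, which turned from 0.05 to -0.23. Klf4, Klf5, Klf9 and Klf10 kept their calls against water under every alternative run.

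With plain library size Klf2 after 4 h in DMSO was -0.15, Klf3, Klf11 and Klf13 after 1 h in MM401 were -0.0011, -0.029 and -0.074, and the difference of the 4 h responses of Klf5 was 0.028. With all 21 libraries Klf7 was 0.058 after 4 h in MM401 and -0.050 between the MM401 water groups. With 1 library left out, the ranges were -0.0090 to 0.37 for Klf2 after 4 h in DMSO, -0.050 to 0.27 for Klf3 after 4 h in MM401, and -0.29 to 0.063 for Klf5 between the MM401 water groups. For MM401 against DMSO they were -0.43 to 0.012 for Klf2 and -0.25 to 0.0080 for Klf10 after 1 h of bicuculline, and -0.045 to 0.50 for Klf2 after 4 h. For the differences of responses they were -0.35 to 0.0061 for Klf5 at 4 h and -0.50 to 0.066 for Klf2 at 1 h.

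Plain library size called 8 of the 10 genes after 4 h in DMSO, 3 higher and 5 lower (Klf3, Klf7, Klf10, Klf11 and Klf13). Of all 16959 genes it called 1820 higher and 7867 lower there. All genes called with 21 libraries were 3745 and 3646 between 1 h and 4 h of bicuculline in DMSO and MM401, against 5805 and 5691. Between the MM401 water groups they were 147, 275 in DESeq2, 19 with 21 libraries, 328 with the compared groups alone and 14 to 140 with 1 library left out. For MM401 against DMSO in water they were 14, 162 in DESeq2, 4 with plain library size, 0 with 21 libraries, 0 with the compared groups alone and 0 to 1272 with 1 library left out (1272 without the first DMSO water library). With bicuculline for 1 h they were 1, 14 in DESeq2, 4 with the replicate block and 0 to 2 with 1 library left out, and for 4 h 0, and 7 in DESeq2. The difference of responses called 0 genes at 4 h, 436 in DESeq2 and 0 to 1551 with 1 library left out (0 to 1 of the 10 genes), and at 1 h 0, 5 in DESeq2 and 0 to 97. The cause was not tested.

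The replicate block changed no call of the 10 genes other than those of Klf3 after 1 h; MM401 against DMSO with bicuculline for 4 h still had 0 of the 10 called. Depth limits Klf2, with 12 to 61 counts, and Klf14.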
